A study of Mus musculus with 8 samples.

Results

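The conjugation enzymes of the Sult, Ugt and Gst families were followed across 4 mouse pancreatic ductal adenocarcinoma cell lines, each measured with and without C1galt1c1. Members were taken by name from the 49315 genes of the expression table: protein-coding genes whose symbols start with Sult, Ugt or Mgst and a digit, or with Gst, a class letter (a, k, m, o, p, s, t or z) and a digit. This gave 70 genes, made up of 21 sulfotransferases (Sult), 22 UDP-glucuronosyltransferases and their relatives (Ugt), 24 soluble or mitochondrial glutathione S-transferases (6 Gsta, 7 Gstm, 3 Gstp, 4 Gstt, 2 Gsto, 1 Gstk and 1 Gstz) and 3 microsomal glutathione S-transferases (Mgst).

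The cells were C1galt1c1 knockout (KO) and wild-type (WT) cultures of the lines 6694c2, 2838c3, 6499c4 and 6419c5, 8 RNA-seq libraries in all. C1galt1c1 encodes Cosmc, a chaperone of the core 1 O-glycan synthase, and its loss leaves the short Tn antigen on the cell. Lines of these names are known as clones, each grown from a pancreatic tumour of a genetically engineered mouse. All cultures, KO and WT, grew in high-glucose DMEM with fetal bovine serum, penicillin and streptomycin. Each line gave 1 KO and 1 WT library, so the 4 libraries of a genotype are 4 different lines. The labels do not say whether a KO culture is 1 clone or a pool, so a difference between the KO and WT culture of a line cannot be told apart from a difference between cultures. Where 4 values are given for a genotype, they belong to 6694c2, 2838c3, 6499c4 and 6419c5, in that order.

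Conjugation is the second phase of drug and hormone metabolism, in which a polar group is joined to a small molecule so that it can be pumped out of the cell. Sulfotransferases move sulfate from the donor PAPS, UDP-glucuronosyltransferases move glucuronic acid from UDP-glucuronate, and glutathione S-transferases join glutathione to electrophiles. Liver and intestine are the best known sites of these reactions. Many Gst genes and Ugt1a6 are known targets of the transcription factor Nrf2.

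Values were TPM, a share of transcripts corrected for gene length. They sum to 1000000 in each library and hold no read depth, so no counting interval can be given. C1galt1c1 stood at 10.9, 15.3, 19.0 and 16.1 TPM in KO libraries, against 37.0, 40.4, 54.2 and 37.9 TPM in WT libraries, lower in KO in all 4 lines (limma difference -1.42, SE 0.15, adjusted p = 0.278). All 9 ductal epithelial markers reached 1 TPM in every library, whereas none of 5 immune and 3 endothelial markers did in any. Of 5 hepatocyte markers Apoa1 and Ttr passed 1 TPM in each library and Alb, Serpina1a and Cyp2e1 in none. Of 4 enterocyte markers, Vil1 did so in every library, Fabp2 in all but the KO library of 6694c2, and Apoa4 and Lct in none. Genes without a name or of small RNA classes took 13.6% and 10.6% of the TPM in the KO libraries of 6694c2 and 6419c5, against 1.38% and 1.25% in their WT libraries, and at most 1.58% elsewhere. These 2 KO libraries stand apart in this measure. It lowers the TPM of all other genes, so KO minus WT differences within a line are given relative to the median difference of all genes tested. Fitted differences across the 4 lines and KO levels as a percentage of WT are on the TPM scale without that shift.

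Of the 70 enzymes, 40 reached 1 TPM in at least 1 library and 25 in all 8. The other 30 stayed below 1 TPM in every library, and 16 of them were listed at 0 throughout. The sulfotransferases were the most silent family: 6 of 21 reached 1 TPM anywhere and 12, among them Sult1e1, Sult2a1 to Sult2a8, Sult3a1 and Sult3a2, were listed at 0 in all libraries. Sult1e1 encodes the estrogen sulfotransferase and the Sult2a genes encode hydroxysteroid sulfotransferases best known from the liver. Among the Ugt genes 8 of 22 reached 1 TPM. The liver bilirubin enzyme gene Ugt1a1 peaked at 0.519 TPM. Of the soluble and microsomal glutathione S-transferases, every member except Gstt4 (0.269 TPM at most) reached 1 TPM in some library.

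The number of members at 1 TPM or more was 35, 26, 32 and 37 in the KO libraries, against 37, 34, 36 and 37 in the WT libraries. In 2838c3 the 8 members that only the WT library held at 1 TPM were Gsta5, Gstm3, Sult1a1, Sult1b1, Ugt1a6a, Ugt2a3, Ugt2b35 and Ugt2b36, and no member was held by the KO library alone. They are 23.5% of the 34 members at 1 TPM or more in either library, while 5.86% of all such genes were held by the WT library alone and 4.69% by the KO library alone. Sult1b1 and Ugt2a3 were above the same level only in WT also in 6694c2 and 6499c4. The members held by the WT library alone made up 7.89% in 6694c2, 11.1% in 6499c4 and 2.63% in 6419c5, against 6.96%, 4.63% and 5.87% of all genes. In 6419c5 the KO library alone held Gsta5 and the WT library alone Ugt1a6b. How far apart the 2 libraries of a line lay differed: Gstm3 stood at 0.836 TPM in the KO and 10.5 TPM in the WT library of 2838c3, and Ugt1a6b at 0.783 TPM in the KO and 1.25 TPM in the WT library of 6419c5. In these bulk libraries fewer cells with a transcript and less of it per cell cannot be told apart.

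Summed over the 70 members, conjugation enzymes made up 11117, 4439, 5021 and 5608 TPM in KO libraries, against 10295, 8505, 6798 and 6181 TPM in WT libraries. 4 genes, Gsta4, Gstp1, Gsto1 and Gstm1, held between 66.0% and 83.9% of that sum in each library. The sum was highest in 6694c2, and it was lower in KO than in WT in 2838c3, 6499c4 and 6419c5 but not in 6694c2. These sums are in TPM, not corrected for unnamed or small RNAs. Such RNAs took 10.6% of the KO library of 6419c5 and 1.25% of its WT library. That lowers the KO sum of 6419c5, so its direction there may not be one of the enzymes.

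**Figure D1:**
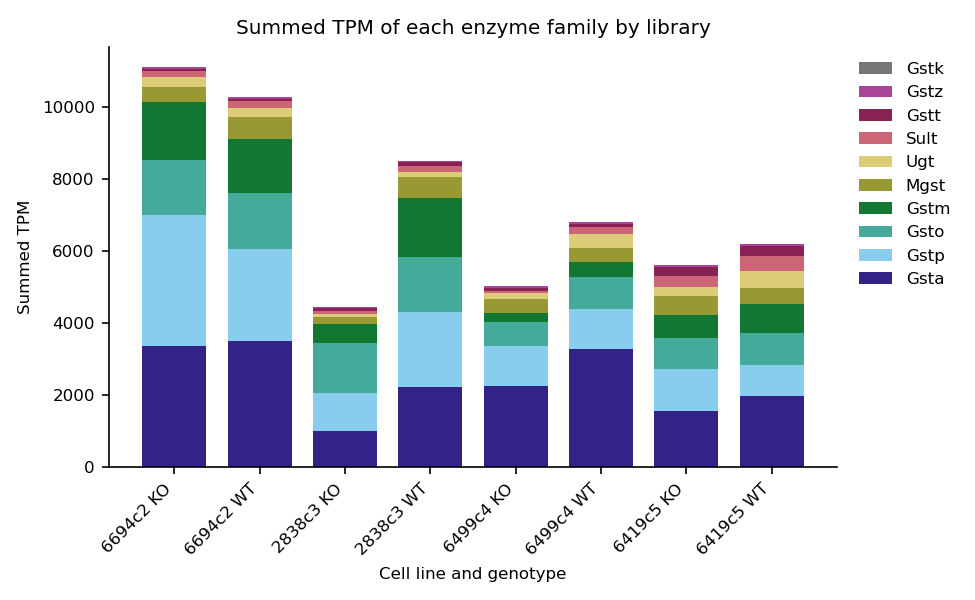
Summed TPM of each enzyme family in the 8 libraries, KO left of WT within each line. Bars start at 0 and stand for 1 library each; the sum over all 70 members is 4439 TPM in the KO and 8505 TPM in the WT library of 2838c3.

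Sequences before the gene starts are shown for members that passed the F-test or a contrast of lines and that hold one of 2 short motifs, searched on both strands, within 150 bases before the start. Gstm7 also meets this and is not shown. They come from the RefSeq promoter table on build GRCm38.p6, which matched 60 of the 70 members. Each is a stretch of 150 bases written 5′ to 3′ on the gene's strand, with the motif in capitals. The antioxidant response core, TGACNNNGC, is the part of the site bound by Nrf2 with small Maf proteins. Among the matched members, Gsta3, Gstm5, Gstm7 and Mgst1 held it in their windows of 250 bases before to 50 after the start. This is 5.56% of the members' 72 windows, against 12.4% of all 32851 windows in the table.
Gsta3, chr1:21240435-21240584, plus strand: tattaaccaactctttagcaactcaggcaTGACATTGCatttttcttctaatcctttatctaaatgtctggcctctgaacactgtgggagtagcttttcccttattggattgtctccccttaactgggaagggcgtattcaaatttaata
Gstm5, chr3:107895704-107895853, plus strand: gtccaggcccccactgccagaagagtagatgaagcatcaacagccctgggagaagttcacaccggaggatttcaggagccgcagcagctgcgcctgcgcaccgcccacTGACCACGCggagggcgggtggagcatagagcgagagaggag
Mgst1, chr6:138140377-138140526, plus strand: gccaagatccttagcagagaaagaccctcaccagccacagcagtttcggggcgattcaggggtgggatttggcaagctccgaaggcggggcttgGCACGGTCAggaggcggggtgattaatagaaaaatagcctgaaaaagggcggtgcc
The AP-1 motif, TGANTCA, occurred in the windows of 14 members, 19.4% of the members' windows, against 7.81% of all windows. Gstp1 and Gstp2, neighbouring pi-class genes, both held it. Their 2 stretches of 150 bases were identical at 70.3% of aligned positions, gaps included.
Gstp1, chr19:4037913-4038062, minus strand: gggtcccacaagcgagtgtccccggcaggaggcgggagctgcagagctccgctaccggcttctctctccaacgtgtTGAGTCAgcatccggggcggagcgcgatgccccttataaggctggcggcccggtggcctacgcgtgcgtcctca
Gstp2, chr19:4042222-4042371, minus strand: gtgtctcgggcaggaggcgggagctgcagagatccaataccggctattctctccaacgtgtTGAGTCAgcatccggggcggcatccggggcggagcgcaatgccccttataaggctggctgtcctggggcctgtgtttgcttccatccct
Ugt1a6a, chr1:88134659-88134808, plus strand: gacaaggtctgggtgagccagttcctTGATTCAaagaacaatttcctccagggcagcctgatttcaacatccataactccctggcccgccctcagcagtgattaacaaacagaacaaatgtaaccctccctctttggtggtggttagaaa
No match of one motif overlapped a match of another. A match describes letters only, and related genes share sequence, so their windows are not independent.

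The lines differed in which enzymes they expressed. Among 12900 genes with at least 1 TPM in at least 4 libraries, 36 of them members, limma's moderated F-test of the lines on log2(TPM + 1), with genotype in the model, called 20 members at a Benjamini-Hochberg adjusted p under 0.05 over all genes. That is 20 of the 36 members tested, against 16.9% of all genes tested. The count was 14 without 6694c2, 25 without 2838c3, 9 without 6499c4 and 12 without 6419c5, when 11.4%, 28.7%, 6.75% and 7% of all genes were called. Of the 20 members, 11 kept the call without 6694c2, 17 without 2838c3, 9 without 6499c4 and 12 without 6419c5. Each line entered with 1 KO and 1 WT library. The spread behind these p-values is that of the KO minus WT difference between lines, not of replicate cultures within a line.

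6694c2 had the highest levels of 5 of the 6 alpha-class genes and 6419c5 those of the 4 expressed Sult1 genes. Against the mean of the other 3 lines, 14 members were higher in 6694c2 (background 3.44% of genes tested): Gsta1, Gsta2, Gsta3, Gsta5, Gsta13, Gstk1, Gstm1, Gstm2, Gstm4, Gsto2, Gstp1, Gstp2, Mgst1 and Ugt1a7c. There, 5 were lower (background 7.28%): Gstm7, Gstt1, Gstt2, Gstt3 and Sult1d1. In 6419c5, 8 members were higher (background 8.87%): Gstm2, Gstm7, Gstt1, Gstt3, Sult1a1, Sult1c2, Sult1d1 and Ugt1a7c. There, 1 was lower, Gstk1 (background 2.95%). In 2838c3, 1 member, Gstm5, was higher (background 2.58%) and 6 were lower (background 3.88%): Gsta3, Gstk1, Gstm2, Ugt1a6a, Ugt1a7c and Ugt2b36. In 6499c4, 3 members were higher (background 3.33%), namely Gstt2, Ugt1a7c and Ugt2b36. There, 7 were lower (background 3.84%): Gsta3, Gstm1, Gstm2, Gsto2, Gstt1, Mgst1 and Sult1a1. Ugt1a7c was called higher in 6694c2, 6499c4 and 6419c5 alike, at mean levels of 89.8, 89.3 and 78.1 TPM. 2838c3, at 3.96 TPM, lowers the mean of the other lines each time. The number of members called in any of these contrasts was 24 of the 36 tested (background 20.9%), and between 11 and 27 when 1 line was left out (14 without 6694c2, 27 without 2838c3, 11 without 6499c4, 13 without 6419c5).

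**Figure D2:**
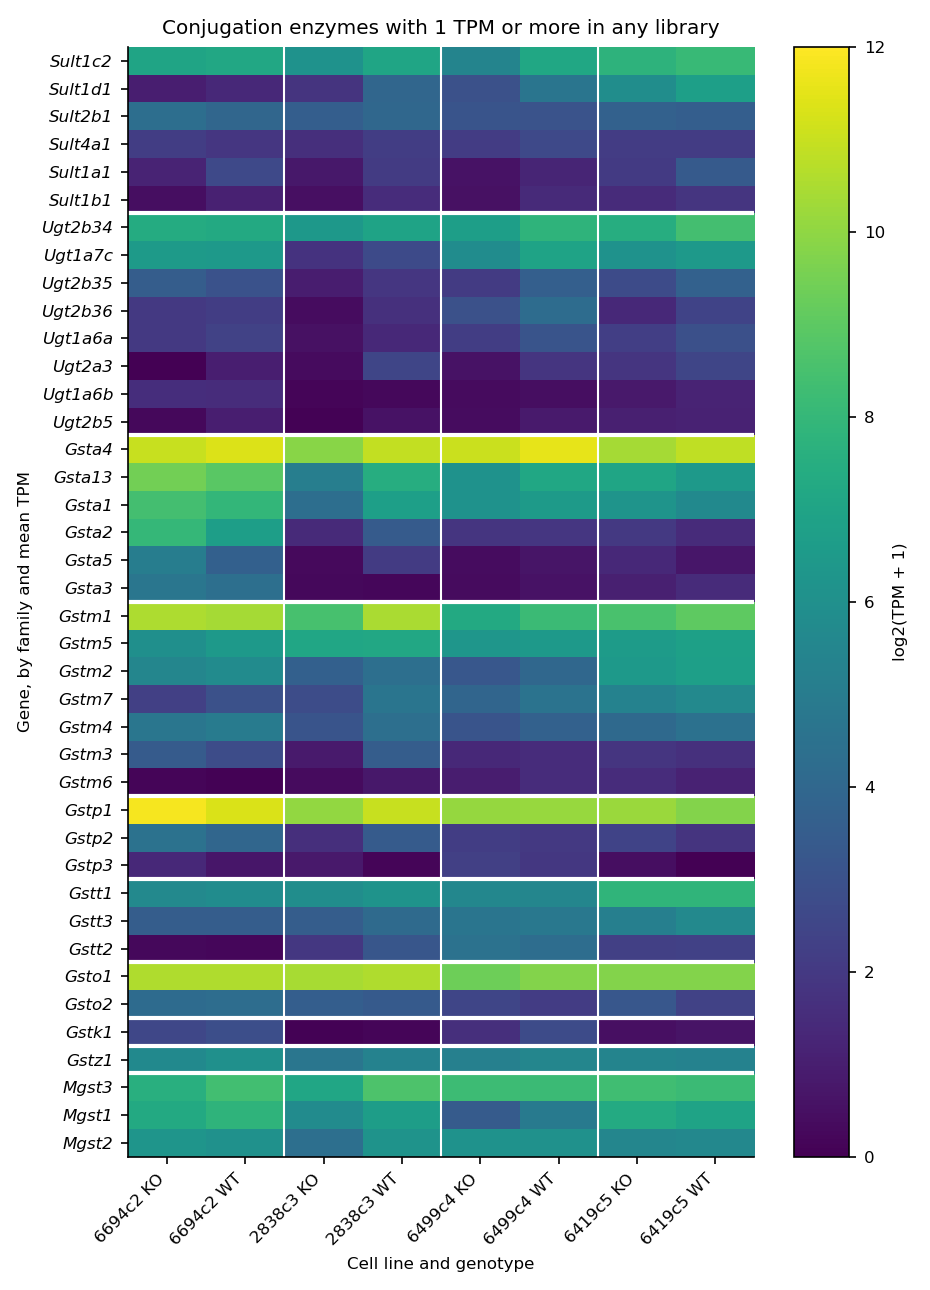
Log2(TPM + 1) of the 40 members at 1 TPM or more in at least 1 library, by family, with KO left of WT in each line. Colour runs with the level; Gsta1, Gsta2, Gsta3, Gsta5 and Gsta13 are brightest in 6694c2 and Sult1d1 and Sult1a1 in 6419c5.

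No gene passed the adjusted threshold between KO and WT across the 4 lines in limma's test with line as a block: 0% of the 12900 genes, and no member. The smallest adjusted p of a member was 0.497. At an unadjusted limma p under 0.05, 1137 genes differed, 1026 lower and 111 higher in KO. That is 7.95% of genes tested lower and 0.86% higher. Of the 36 members tested, 14 were lower at this level and none was higher. They were 4 sulfotransferases (Sult1a1, Sult1b1, Sult1c2, Sult1d1), 5 Ugt genes (Ugt1a6a, Ugt1a7c, Ugt2a3, Ugt2b34, Ugt2b36), 4 mu-class genes (Gstm1, Gstm2, Gstm4, Gstm7) and Gsta4. Sult1b1 and Ugt2a3 were under 1 TPM in every KO library but that of 6419c5. They passed the filter through their WT libraries, so for them the filter itself favoured a lower KO level. With median-ratio scaling in place of TPM totals the split over all genes was 347 lower of 639, and 8 members were lower and 1 was higher. The fitted KO minus WT difference had a median of -0.48 on the log2(TPM + 1) scale over the members tested, against -0.15 over all genes tested. Without 6499c4 the number of members lower was 8, when 5.26% of genes were lower. Without the lines 6694c2 and 6419c5 it was 17, when 5.22% of genes were lower. In the model without line as a block it was 3, with 176 of the 12900 genes lower. None of these 14 members passed the adjusted threshold.

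Within lines, KO minus WT is given on the log2(TPM + 1) scale relative to the median of all genes tested in that line, with no test, since each side is 1 library. In 2838c3, 16 of the 36 members tested were lower in KO by at least 1 (background 6.47%) and none was higher by that much (background 5.89%). In 6499c4, 7 were lower (background 1.26%) and none was higher (background 1.12%). In 6694c2, 1 was lower, Sult1a1 (background 3.17%), and 2 were higher, Gsta2 and Gsta5 (background 2.79%). In 6419c5, 1 was lower, Sult1a1 (background 1.44%), and 1 was higher, Gsto2 (background 2.09%). The summed level of the 5 mesenchymal markers was 1510, 3398, 1870 and 1525 TPM in KO libraries, against 2302, 1821, 1414 and 1688 TPM in WT libraries, so it was higher in KO in 2838c3 and 6499c4; its part was not tested. The median member differed by 0.17, -0.92, -0.41 and -0.02. By family the medians were 0.19, -0.87, -1.06 and -0.69 for the Ugt genes, -0.04, -0.89, -0.67 and -0.17 for the Sult genes, and 0.22, -1.07, -0.14 and 0.15 for the Gst and Mgst genes. Not taken relative to the median, the positive ones were below 0: -0.06 for all members, -0.04 for Ugt and -0.005112 for Gst and Mgst genes in 6694c2, and -0.002502 for Gst and Mgst genes in 6419c5.

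KO was below WT in all 4 lines, relative to the median, for 10 members tested (background 6.79%): Gsta4, Gstm2, Gstm4, Gstm5, Gstm7, Sult1a1, Sult1b1, Sult1d1, Ugt1a6a and Ugt2a3. Of these, Sult1b1 and Ugt2a3 passed the filter through their WT libraries. In 2838c3, 6499c4 and 6419c5, leaving out 6694c2, 17 members were below WT (background 12.2%). KO was above WT in all 4 lines for 1 member, Gsto2 (background 6.43%), and for none when differences were not taken relative to the median.

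**Figure D3:**
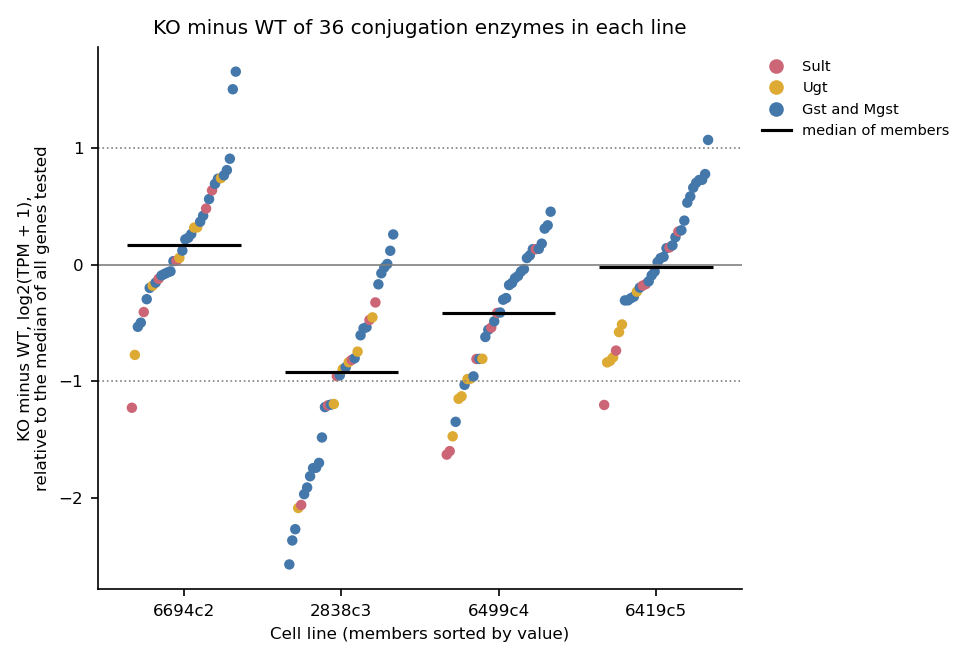
KO minus WT on the log2(TPM + 1) scale, relative to the median of all genes tested, for the 36 members tested in each line, each point 1 member. The line medians are 0.17 in 6694c2, -0.92 in 2838c3, -0.41 in 6499c4 and -0.02 in 6419c5.

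Among the sulfotransferases, Sult1c2 was the most abundant, a phenol sulfotransferase of stomach, gut and kidney. It stood at 129, 69.3, 41.0 and 219 TPM in KO libraries, against 147, 130.0, 139 and 274 TPM in WT libraries. Levels were highest in 6419c5 in both genotypes, and there the line passed the contrast with the other 3 lines (difference 1.29, SE 0.30, limma adjusted p = 0.0414), while the F-test of lines did not call it (adjusted p = 0.0658). KO was below WT in every line in TPM, most in 6499c4, where it reached 29.5% of the WT level.

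Sult1d1, a sulfotransferase of catecholamines and other small phenols in mouse, varied most between lines in this family. It stood at 1.04, 2.55, 6.83 and 57.9 TPM in KO libraries, against 1.60, 14.7, 24.5 and 108 TPM in WT libraries. The order from 6694c2 to 6419c5 was the same in both genotypes, and the mean of 6419c5 was 62.8-fold that of 6694c2 (F-test adjusted p = 0.00228). KO minus WT was -0.12, -2.06, -1.60 and -0.74 relative to the median. Over the 4 lines the fitted difference, not relative to the median, was -1.27 (SE 0.30), with a limma adjusted p = 0.542.

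Sult1a1, the main phenol sulfotransferase, was lower in KO by more than 1 on the log2 scale in 3 of the 4 lines. It stood at 1.29, 0.728, 0.513 and 3.12 TPM in KO libraries, against 5.29, 3.22, 1.37 and 9.57 TPM in WT libraries. Its fitted difference between KO and WT, not relative to the median, was -1.19 (SE 0.21), with a limma adjusted p = 0.497. It also differed between lines (F-test adjusted p = 0.0257), highest in 6419c5 and lowest in 6499c4 in both genotypes.

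Sult1b1, a sulfotransferase of thyroid hormones and phenols in gut and liver, was low throughout. It stood at 0.382, 0.422, 0.437 and 1.82 TPM in KO libraries, against 1.15, 1.92, 1.71 and 2.56 TPM in WT libraries, so 3 KO libraries were under 1 TPM and all 4 WT libraries above it. The cholesterol sulfotransferase gene Sult2b1 ranged from 7.42 to 19.4 TPM and the brain gene Sult4a1 from 2.103 to 5.22 TPM, and neither passed the F-test of lines or the unadjusted test of genotype.

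**Figure D4:**
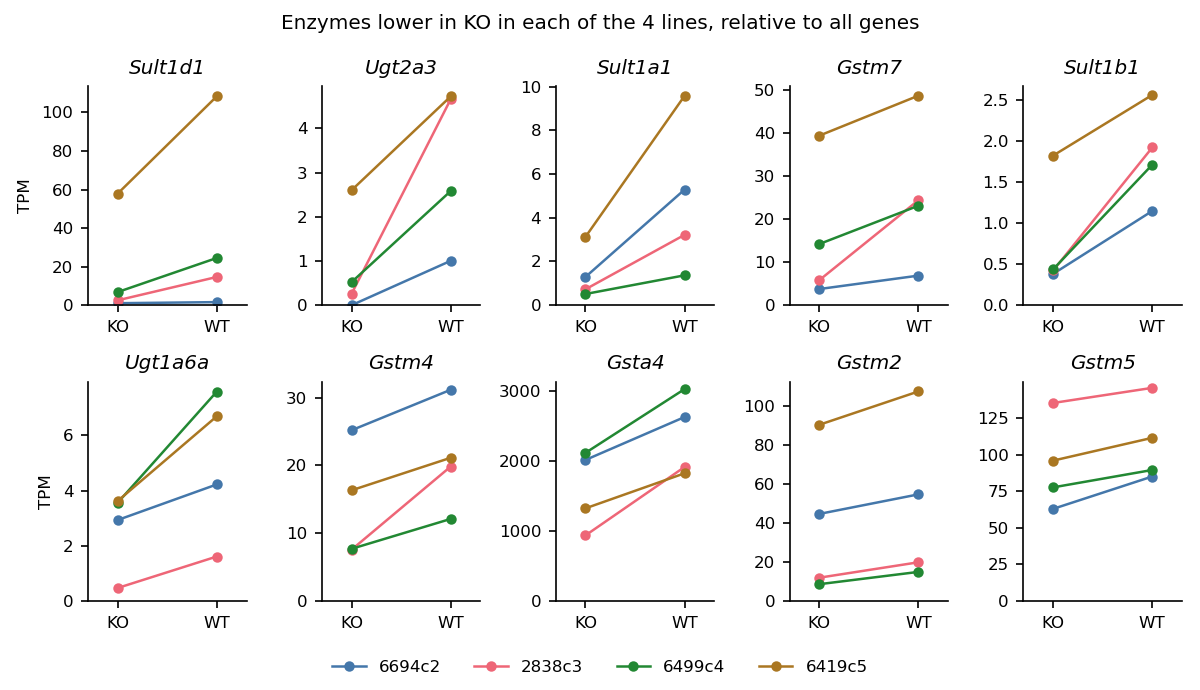
TPM of the 10 members lower in KO in all 4 lines relative to the median, with the KO library on the left and the WT library on the right of each panel, joined by cell line. The vertical axes start at 0, and the KO point lies below the WT point in every pair.

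The glucuronosyltransferases were led by Ugt2b34, from the Ugt2 cluster of chromosome 5 that acts on steroids and drugs. It stood at 168, 84.0, 105 and 177 TPM in KO libraries, against 158, 122, 223 and 343 TPM in WT libraries. KO was lower in 2838c3, 6499c4 and 6419c5 and slightly higher in 6694c2. Ugt2b35, of the same cluster, stood at 10.6, 0.956, 3.19 and 5.79 TPM in KO libraries, against 7.14, 2.69, 11.5 and 12.4 TPM in WT libraries. The direction in each line was that of Ugt2b34, and the F-test of lines did not call it (adjusted p = 0.0775).

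Ugt2b36 was highest in 6499c4, at 2.96, 0.304, 6.81 and 1.64 TPM in KO libraries, against 3.46, 2.16, 17.7 and 4.25 TPM in WT libraries. The F-test of lines called it (adjusted p = 0.0123). KO was lower in TPM in each line, and by at least 1 on the log2 scale in 2838c3 and 6499c4.

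Ugt2a3, a bile acid glucuronosyltransferase in human, stood at 0, 0.259, 0.522 and 2.60 TPM in KO libraries, against 1.00, 4.66, 2.58 and 4.72 TPM in WT libraries. Each WT library was above its KO library, and the highest KO value, in 6419c5, lay within the range of the WT values. Its fitted difference, not relative to the median, was -1.27 (SE 0.28), with a limma adjusted p = 0.542. The value of the KO library of 6694c2 was listed at 0. Ugt2b5 peaked at 1.22 TPM, in the WT library of 6419c5, and was not among the genes tested.

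Ugt1a7c and Ugt1a6a come from the Ugt1a locus, where first exons of their own are spliced to shared last exons. On GRCm39 (GENCODE vM39) Ugt1a7c spans chromosome 1, 88022726 to 88147724, and Ugt1a6a spans chromosome 1, 88062222 to 88147724. Their shared exons are 77.2% of the exonic bases of Ugt1a7c and 56.6% of those of Ugt1a6a, so the table cannot fully separate reads of the Ugt1a genes. Ugt1a7c stood at 92.7, 2.34, 56.8 and 67.5 TPM in KO libraries, against 86.9, 5.57, 122 and 88.6 TPM in WT libraries.

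Both libraries of 2838c3 were far below all others for Ugt1a7c. The line difference was -4.17 (SE 0.26, limma adjusted p = 5.73e-04). Ugt1a6a, the phenol enzyme of the locus, stood at 2.93, 0.472, 3.56 and 3.62 TPM in KO libraries, against 4.22, 1.61, 7.58 and 6.69 TPM in WT libraries. It too was lowest in 2838c3 in both genotypes, and KO was lower than WT in every line. Ugt1a6b reached 1 TPM in both libraries of 6694c2 and in the WT library of 6419c5, with 77.0% of its stretches of 100 bases found in another Ugt gene.

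The summed level of the 4 enterocyte markers was 50.6, 91.1, 156 and 213 TPM in KO libraries, against 145, 141, 168 and 278 TPM in WT libraries. It was lower in KO in every line, in TPM, and rested mostly on Vil1 and Fabp2, since Apoa4 and Lct were under 1 TPM in every library. Also lower in every line were the 10 members below WT relative to the median. They were Gsta4, Gstm2, Gstm4, Gstm5, Gstm7, Sult1a1, Sult1b1, Sult1d1, Ugt1a6a and Ugt2a3. The part of the enterocyte markers in these differences was not tested.

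In the alpha class, Gsta4 was the most abundant member. It encodes the enzyme for 4-hydroxynonenal, a product of lipid peroxidation. It stood at 2015, 937, 2116 and 1324 TPM in KO libraries, against 2628, 1914, 3027 and 1824 TPM in WT libraries. KO was lower in each line, and in 2838c3 it reached 49.0% of the WT level. The F-test of lines did not call it (adjusted p = 0.0882).

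The other 5 alpha-class genes peaked in 6694c2. Gsta3, an enzyme that conjugates aflatoxin epoxide in mouse, stood at 25.4, 0.198, 0.280 and 1.06 TPM in KO libraries, against 20.0, 0.167, 0.492 and 1.78 TPM in WT libraries. It had the smallest F-test p of the members tested (adjusted p = 6.11e-04), and the mean of 6694c2 was 124-fold that of 2838c3, the lowest line. It entered the test only through the libraries of 6694c2 and 6419c5. With no filter on low values the F-test adjusted p was 0.0103. KO and WT of 6694c2 lay close together, with both far above the other 6 libraries.

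Gsta2 stood at 253, 1.66, 2.63 and 3.02 TPM in KO libraries, against 104, 10.0, 2.69 and 1.75 TPM in WT libraries. Within 6694c2 KO was higher by 1.504 relative to the median, while within 2838c3 the difference was -1.97. Gsta5 stood at 33.2, 0.219, 0.308 and 1.57 TPM in KO libraries, against 11.7, 3.31, 0.590 and 0.672 TPM in WT libraries, with the same signs in these 2 lines. Both passed the F-test of lines, with adjusted p = 0.00629 for Gsta2 and 0.0301 for Gsta5. Gsta5 entered the test with just 4 libraries at 1 TPM or more, among them both of 6694c2. With no filter on low values its F-test adjusted p was 0.113. Of the stretches of 100 bases, 15.3% of Gsta2 and 22.4% of Gsta5 occur in other genes of the family. Gsta2 shares most with Gsta1 and Gsta5 most with Gsta13, so some of their reads may come from those genes.

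Gsta1 and Gsta13 are near-identical neighbours on chromosome 9, and 80.7% and 85.4% of their stretches of 100 bases occur in another gene of the family, so their reads can be split between them. Gsta1 stood at 344, 19.0, 69.3 and 73.6 TPM in KO libraries, against 249, 108, 91.3 and 51.6 TPM in WT libraries. Gsta13 stood at 696, 34.4, 67.3 and 132 TPM in KO libraries, against 479, 179, 142 and 88.4 TPM in WT libraries. Both were higher in 6694c2 than in the other lines (limma adjusted p = 0.0481 for Gsta1 and 0.0340 for Gsta13). The F-test of lines called neither (adjusted p = 0.0931 for Gsta1 and 0.0710 for Gsta13). In 2838c3 the KO level was 17.6% and 19.2% of the WT level for Gsta1 and Gsta13, whereas in 6694c2 and 6419c5 KO was above WT.

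In the mu class, Gstm1 was the most abundant gene. It stood at 1457, 362, 155 and 376 TPM in KO libraries, against 1323, 1444, 293 and 518 TPM in WT libraries. In 6694c2 both libraries were high and in 6499c4 both were lowest, while in 2838c3 KO was at 25.1% of WT. The F-test of lines called it (adjusted p = 0.0324).

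Gstm2 was highest in 6419c5, at 44.6, 11.9, 8.62 and 90.2 TPM in KO libraries, against 54.6, 19.8, 14.9 and 107 TPM in WT libraries. Both genotypes kept the order 6419c5, 6694c2, 2838c3, 6499c4, and all 4 line contrasts called it (F-test adjusted p = 8.22e-04). Gstm7 stood at 3.76, 5.82, 14.2 and 39.4 TPM in KO libraries, against 6.87, 24.4, 23.1 and 48.7 TPM in WT libraries. It was lowest in 6694c2 and highest in 6419c5 in both genotypes (F-test adjusted p = 0.0134).

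Gstm4 stood at 25.2, 7.57, 7.70 and 16.3 TPM in KO libraries, against 31.2, 19.8, 12.1 and 21.1 TPM in WT libraries. Gstm5 lies in the same cluster on chromosome 3 and is best known from brain and testis. It stood at 62.9, 135, 77.6 and 95.9 TPM in KO libraries, against 85.0, 146, 89.5 and 111 TPM in WT libraries, highest in 2838c3 in both genotypes. The difference of 2838c3 from the other lines was 0.70 (SE 0.15, limma adjusted p = 0.0418). The F-test adjusted p was 0.0454 for Gstm4 and 0.0453 for Gstm5. The call of Gstm5 was lost on leaving out any 1 line (adjusted p between 0.1025 and 0.1288) and with median-ratio scaling (adjusted p = 0.0601). That of Gstm4 was lost without 6694c2, 6499c4 or 6419c5 (adjusted p between 0.0784 and 0.192).

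Gstm3 stood at 10.1, 0.836, 1.60 and 2.64 TPM in KO libraries, against 5.90, 10.5, 1.87 and 2.12 TPM in WT libraries. It had the largest KO minus WT difference in size of the members tested in 2838c3, -2.57, and was above WT relative to the median in 6694c2 and 6419c5. Gstm6 peaked at 1.87 TPM and was not among the genes tested.

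The pi class was carried by Gstp1, the glutathione S-transferase most often described as raised in tumours. It stood at 3616, 1059, 1085 and 1168 TPM in KO libraries, against 2543, 2063, 1123 and 868 TPM in WT libraries. Both libraries of 6694c2 were above all others, and the line passed the contrast (difference 1.36, SE 0.31, limma adjusted p = 0.0386), while the F-test of lines did not call it (adjusted p = 0.0719). Gstp2 was far lower, with 22.2, 2.03, 3.59 and 4.27 TPM in KO libraries, against 14.5, 9.76, 2.98 and 2.54 TPM in WT libraries. It shares 47.3% of its stretches of 100 bases with other genes of the family, mostly Gstp1, so some of its reads may come from that gene. In 2838c3 KO was below WT for both genes. Gstp3 peaked at 3.89 TPM, in the KO library of 6499c4.

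The theta class divided the lines in its own way. Gstt1, which acts on halogenated methanes, stood at 49.1, 58.6, 46.8 and 229.8 TPM in KO libraries, against 56.5, 69.9, 44.4 and 232 TPM in WT libraries. KO minus WT lay between -0.17 and 0.18 relative to the median in the 4 lines, and the mean of 6419c5 was 3.59-fold that of the next line (F-test adjusted p = 0.00136). Gstt2 was highest in 6499c4, with 0.194, 2.80, 21.7 and 3.76 TPM in KO libraries, against 0.166, 8.37, 18.3 and 4.06 TPM in WT libraries (F-test adjusted p = 0.00386). Gstt3 stood at 10.6, 10.6, 24.3 and 35.8 TPM in KO libraries, against 10.6, 16.9, 27.4 and 49.0 TPM in WT libraries (F-test adjusted p = 0.00678). All 3 theta genes tested were lower in 6694c2 than in the mean of the other lines, and of its exonic bases Gstt3 shares 13.6% with the overlapping gene Gm20441.

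**Figure D5:**
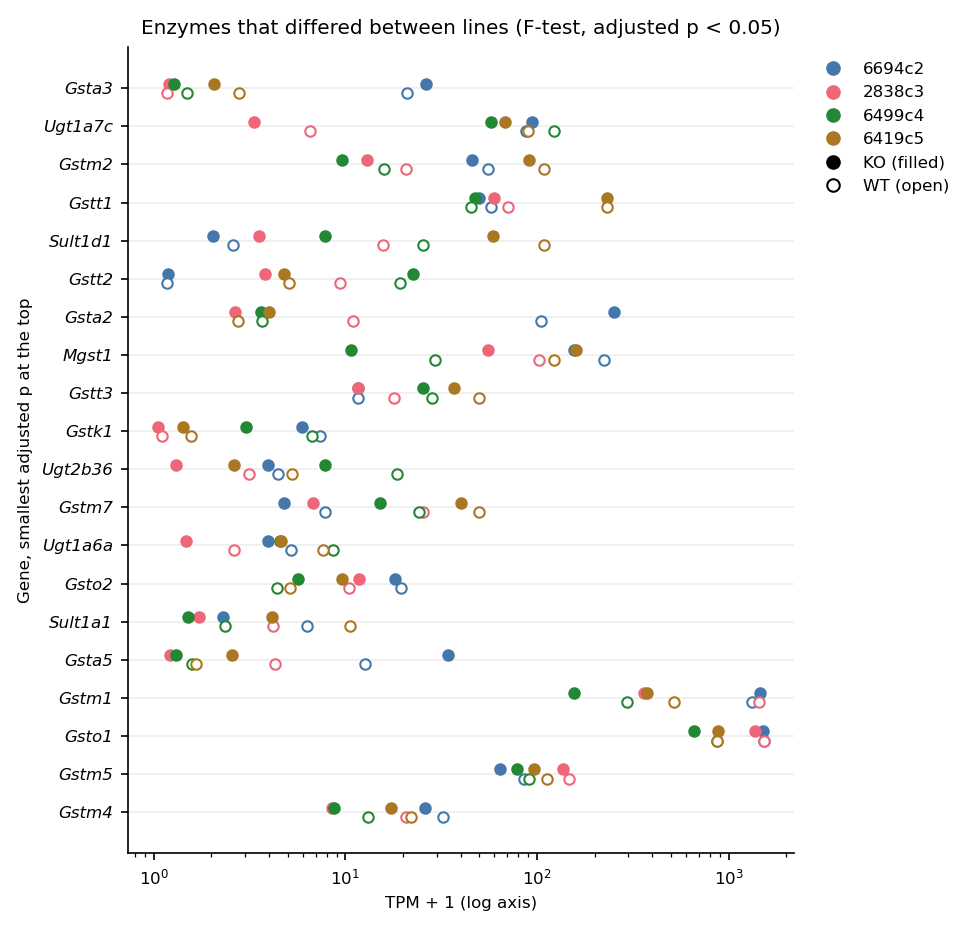
TPM + 1 on a log axis of the members called by the F-test of lines, with KO filled and WT open, coloured by line. Gsta2 and Gsta3 lie far to the right in 6694c2, Gstt1 and Sult1d1 in 6419c5 and Gstt2 in 6499c4, and Ugt1a7c lies far to the left in 2838c3.

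Gsto1, which reduces dehydroascorbate and arsenicals, was among the 4 most abundant members in the table. It stood at 1520.0, 1367, 658 and 875 TPM in KO libraries, against 1533, 1522, 872 and 869.8 TPM in WT libraries, higher in 6694c2 and 2838c3 than in 6499c4 and 6419c5 (F-test adjusted p = 0.0372). Its neighbour on chromosome 19, Gsto2, stood at 17.2, 10.9, 4.63 and 8.64 TPM in KO libraries, against 18.6, 9.48, 3.42 and 4.12 TPM in WT libraries. It is the 1 member tested that was above WT in every line relative to the median, by 0.12, 0.26, 0.45 and 1.07, though in TPM the KO value of 6694c2 was the lower one. It did not pass the test between genotypes (limma adjusted p = 0.602).

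Gstk1, the mitochondrial and peroxisomal kappa-class enzyme, stood at 4.94, 0.0533, 2.03 and 0.423 TPM in KO libraries, against 6.35, 0.110, 5.66 and 0.561 TPM in WT libraries. It was under 1 TPM in all libraries of 2838c3 and 6419c5, and above it in those of 6694c2 and 6499c4 (F-test adjusted p = 0.00700). It entered the test only through the 4 libraries of 6694c2 and 6499c4, so the filter and the test used the same split. With no filter on low values the F-test adjusted p was 0.0385. Gstz1, the maleylacetoacetate isomerase of tyrosine breakdown, ranged from 25.2 to 64.2 TPM. It stood at 51.2, 25.2, 36.5 and 41.9 TPM in KO libraries, against 64.2, 39.2, 44.04 and 39.6 TPM in WT libraries, and the F-test of lines did not call it (adjusted p = 0.119).

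Of the microsomal enzymes, Mgst1 differed between lines and Mgst2 and Mgst3 did not pass that test. Mgst1, which protects membranes from lipid peroxides, stood at 154, 54.4, 9.77 and 159 TPM in KO libraries, against 222, 101, 28.5 and 122 TPM in WT libraries. It was lowest in 6499c4 in both genotypes (line difference -2.81, SE 0.33, limma adjusted p = 0.00428), and there KO was at 34.3% of WT. Mgst3 stood at 191, 136, 299 and 320.2 TPM in KO libraries, against 325, 405, 293 and 291 TPM in WT libraries. Mgst2, which can make leukotriene C4, stood at 75.3, 19.9, 67.4 and 43.995 TPM in KO libraries, against 65.8, 70.7, 66.1 and 47.2 TPM in WT libraries. Each of these last 2 was lower in the KO library of 2838c3, at 33.7% of WT for Mgst3 and 28.1% for Mgst2.

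Genes that supply the 3 donors were measured as transcripts only. The F-test of lines called 16.9% of all genes tested, against which the counts of the gene lists can be read. Between KO and WT, 7.95% of genes tested were lower in KO and 0.86% higher at an unadjusted limma p under 0.05. Of 8 tested genes of PAPS supply and use, the F-test of lines called Papss1, Papss2 and Slc26a2. The sulfate transporter gene Slc26a2 stood at 43.2, 50.6, 216 and 87.1 TPM in KO libraries, against 82.3, 84.4, 444 and 148 TPM in WT libraries, lower in KO in each line (limma adjusted p = 0.380). The PAPS synthase gene Papss1 stood at 91.3, 190.4, 176 and 264 TPM in KO libraries, against 130.3, 162, 147 and 338 TPM in WT libraries. Slc35b3, a Golgi PAPS carrier, was the other gene of this list with a lower KO level at an unadjusted limma p under 0.05, and none was higher.

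Of 6 tested genes of UDP-glucuronate supply and deconjugation, the F-test called 1, a share near that of all genes: Gusb, the lysosomal beta-glucuronidase gene. Ugdh, which makes UDP-glucuronate, stood at 421, 541, 309 and 534 TPM in KO libraries, against 633, 593, 373 and 628 TPM in WT libraries, and it was lower in KO in each line (limma adjusted p = 0.561). Ugp2, which makes UDP-glucose, had the second highest mean level of the list.

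Of 13 tested glutathione genes, the F-test called Gclc, Slc7a11 and Oplah. Gclc, the catalytic subunit of glutamate-cysteine ligase, stood at 544, 74.7, 103 and 113 TPM in KO libraries, against 345, 118, 126 and 149.8 TPM in WT libraries. Slc7a11, the cystine transporter, stood at 252, 10.6, 8.02 and 22.7 TPM in KO libraries, against 66.8, 20.1, 11.9 and 9.51 TPM in WT libraries. Both were highest in 6694c2 in either genotype, the line in which Gsta1, Gsta2, Gsta3, Gsta5, Gsta13 and Gstp1 peaked. Chac1, which degrades glutathione, was the 1 gene of the list with a higher KO level at an unadjusted limma p under 0.05, and none was lower. Its levels were 239.6, 55.7, 20.5 and 82.8 TPM in KO libraries, against 65.3, 56.2, 18.5 and 7.36 TPM in WT libraries (limma adjusted p = 0.561). KO was thus far above WT in 6694c2 and 6419c5 and close to it in 2838c3 and 6499c4.

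Of 7 tested export pumps, the F-test of lines called Abcc1, Abcc3, Abcc4, Abcc10 and Abcg2. Abcc4 stood at 435, 124, 40.0 and 43.3 TPM in KO libraries, against 319.6, 186, 47.3 and 73.8 TPM in WT libraries, highest in 6694c2. Abcg2, a pump for sulfate conjugates, stood at 2.40, 1.77, 1.94 and 24.8 TPM in KO libraries, against 4.89, 7.80, 1.25 and 22.3 TPM in WT libraries, highest in 6419c5. None of the pumps passed the unadjusted test between KO and WT. The median fitted KO minus WT difference, relative to that of all genes tested, was -0.20 for the PAPS genes, -0.13 for the UDP-glucuronate genes, 0.05 for the glutathione genes and -0.12 for the pumps.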

How the data were processed

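RNA of 8 cultures was poly(A)-selected and sequenced in paired reads, per the labels' protocols. The submitters' processing notes name cutadapt 5.1, STAR 2.7.11b, featureCounts 2.1.1, DESeq2 2.11.40.8 and the mm39 build. The deposited TPM values are the authors' own, and the gene lengths behind them are stated neither in the labels nor in the file. The table holds 49315 identifiers, each library sums to 1000000 TPM, and 27103 are above 0 somewhere. Counts were not used, so depth does not enter the tests.

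Names and GRCm39 positions came from GENCODE vM39. Genes with at least 1 TPM in at least 4 of 8 libraries (12900) were fitted as log2(TPM + 1) with limma 3.58.1 (R 4.3.3), with variance trend, line and genotype as terms, and Benjamini-Hochberg adjustment over all genes at 0.05. Fold changes on this scale understate those of low genes. A member with low values passes the filter only through the libraries where it is high. Line was the block: KO and WT of a line share the line per the labels, and their deviations correlated at 0.66, 0.42, 0.79 and 0.75. Cultures were not replicated within a line. Read sharing counted stretches of 100 bases of exonic sequence found in other genes of the family. The fit was tested on simulated data. Members in full were those passing a line test, those differing by at least 1 within a line with at least 5 TPM, and the most expressed of each family. Of the lists, genes that passed a test and the 2 with the highest mean were eligible. Members and lists were chosen with earlier results of these data known. Alternatives were another pseudocount, filter, scaling, variance model, the model without the line block, and leaving out each line.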

Additional observations from a re-analysis of the deposited data

Results flagged for a closer look

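In 9 of 72 groups of 4 libraries (36 members tested, KO and WT), 1 library lay far from the other 3 by Dixon's test at the 95% level. Chance would give this in about 1 group in 20 if the lines were alike. Here the 4 libraries are different lines and the groups are not independent, so the 9 cannot be read against that rate. Among KO libraries, 6694c2 stood above the others for Gsta2, at 253 TPM, and for Gstp1, at 3616 TPM. Among KO libraries, 6419c5 stood above the others for Gstt1, at 229.8 TPM, and for Sult1b1, at 1.82 TPM. The WT library of 6419c5 stood above the other WT libraries for Sult1c2, at 274 TPM. The KO library of 2838c3 was far below the other KO libraries for Sult4a1 (2.103 TPM), Ugt1a6a (0.472 TPM) and Ugt1a7c (2.34 TPM). The WT library of 2838c3 was likewise far below for Ugt1a7c, at 5.57 TPM.

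Gsta2 differed in direction between lines: KO minus WT on the log2(TPM + 1) scale, relative to the median, was 1.504 in 6694c2 and -1.97 in 2838c3. With 1 library a side this difference was not tested.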

How the results depend on the processing

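Not taking within-line differences relative to the median turned the sign of the median of all members (-0.0602), the Ugt genes (-0.04085) and the Gst and Mgst genes (-0.005112) in 6694c2, and of the Gst and Mgst genes in 6419c5 (-0.002502). It also turned the sign of 5 of 36 members in 6694c2, 1 in 2838c3, 2 in 6499c4 and 5 in 6419c5, and left 0 members above WT in all 4 lines. No gene passed the adjusted threshold between KO and WT under any alternative run. The F-test of lines called 20 members and 2178 genes. Leaving out each line gave 9 to 25 members and 871 to 3708 genes. A filter of 5 TPM left 23 members to test and called 12 of them, with 16.3% of genes called. None of the 20 members that was still tested there lost its call. With no filter on low values the F-test called 14 of 54 members tested, with 6.47% of genes called. Only 10 of the 20 members kept the call. It was lost for Gsta5, Gstm1, Gstm4, Gstm5, Gstm7, Gsto1, Gsto2, Sult1a1, Ugt1a6a and Ugt2b36. For members in any line contrast (24) the leave-out range was 11 to 27, with 1165 to 4534 genes. With no filter it was 14 of 54 members tested, and with a filter of 5 TPM 15 of 23. Members lower in KO at an unadjusted limma p under 0.05 (14 of 36) numbered 9 of 23 with a filter of 5 TPM. The shares of genes lower were 7.95% and 8.22%. They numbered 8 with median-ratio scaling (2.69% of genes) and 9 with quantile normalization (2.58% of genes). The count was 3 without the replicate block (176 of 12900 genes). It was 8 to 15 without each line in turn (4.46% to 11.4% of genes). The number below WT in every line (10) was 10 to 17 with 1 line left out. This count cannot fall when a line is dropped, so it is no check on the 10. The 17 were reached without 6694c2, against 12.2% of all genes tested. At 5 TPM, 23 members in the KO and 24 in the WT library of 6419c5 counted as expressed. Within lines, members lower by at least 1 in 6694c2 numbered 3 with a pseudocount of 0.1 and 2 when not taken relative to the median. In 6419c5 the pseudocount of 0.1 gave 2 lower and 2 higher, and 0 were higher when not taken relative to the median. The causes were not tested. TPM hold no depth, so counting error at low levels is unknown. The counts of members lower in KO at the unadjusted level or in every line, and the fit without the 2 lines whose KO libraries held many small or unnamed RNAs, were chosen after seeing the data.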

Other observations

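Oxidation and reduction enzymes, the first phase of drug metabolism, also differed between the lines. Of 20 tested genes of phase 1 and of carbonyl or quinone reduction, the F-test of lines called 13, against 16.9% of all genes tested. Nqo1, the quinone reductase gene known as an Nrf2 target, stood at 282, 24.2, 0.711 and 18.9 TPM in KO libraries, against 120.0, 148, 1.27 and 7.10 TPM in WT libraries. It was lowest in 6499c4, and KO was above WT in 6694c2 and 6419c5 and below it in 2838c3 and 6499c4. The carbonyl reductase gene Cbr3 stood at 570.2, 19.7, 55.4 and 48.9 TPM in KO libraries, against 355, 55.9, 61.0 and 99.2 TPM in WT libraries, highest in 6694c2. Akr1b8, an aldose reductase relative, stood at 906, 387, 183 and 161 TPM in KO libraries, against 655, 408, 168 and 121 TPM in WT libraries, also highest in 6694c2. Cyp4b1 was highest in 6499c4, with 68.8 TPM in KO and 111 TPM in WT. 4 of the 20, Cyp4f16, Ephx1, Cbr1 and Fmo5, were lower in KO at an unadjusted limma p under 0.05 (background 7.95%). None was higher (background 0.86%).

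Of 18 tested transcription factors known to act on conjugation genes, the F-test of lines called 4, Nr1i2, Cdx2, Foxa1 and Nr1h4, against 16.9% of all genes tested. Nr1i2, the pregnane X receptor gene, stood at 0.936, 1.10, 0.562 and 19.8 TPM in KO libraries, against 1.28, 4.34, 0.682 and 34.1 TPM in WT libraries. Nr1h4, the bile acid receptor gene, stood at 5.38, 3.26, 4.27 and 52.7 TPM in KO libraries, against 7.12, 5.05, 4.47 and 44.1 TPM in WT libraries. Both were highest in 6419c5. Nfe2l2, which encodes Nrf2, stood at 129.9, 96.6, 138 and 91.3 TPM in KO libraries, against 191, 225, 218 and 108 TPM in WT libraries, lower in KO in every line (limma adjusted p = 0.556). Nfe2l2 and Nr1i2 were the 2 factors of 18 lower in KO at an unadjusted limma p under 0.05 (background 7.95%). None was higher (background 0.86%). Of 11 tested GST-fold or membrane relatives outside the naming rule the F-test called 7, and of 6 tested other conjugating enzymes it called Nat2 and Ethe1. The median fitted KO minus WT difference, relative to that of all genes tested, was -0.22 for the phase 1 genes, -0.02 for the transcription factors, 0.07 for the relatives outside the rule and -0.07 for the other conjugating enzymes.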
